A study of Mus musculus with 14 samples.

Results

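Collagen prolyl and lysyl hydroxylases were followed in mouse embryonic fibroblasts during reprogramming with and without vitamin C. The 7 genes were P4ha1, P4ha2 and P4ha3, which encode the catalytic alpha subunits of collagen prolyl 4-hydroxylase, P4hb, which encodes its beta subunit, and the lysyl hydroxylase genes Plod1, Plod2 and Plod3. They were chosen by name for their enzyme class and not by their signals, though with earlier results of these data known. Each of the 7 had a single probe on the array with no other gene assigned to it, and together they made 7 of the 19938 genes measured.

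Collagen chains are hydroxylated on proline and lysine residues in the endoplasmic reticulum. The prolyl 4-hydroxylase makes the 4-hydroxyproline that keeps the collagen triple helix stable at body temperature, and the lysyl hydroxylases make the hydroxylysine on which sugars are attached and cross-links are built. The catalytic chains of both classes hold an iron ion that vitamin C (ascorbate) keeps in its reduced form, and they use oxygen and 2-oxoglutarate. P4hb is the protein disulfide isomerase, which has no such iron centre; it keeps the alpha subunits soluble in the endoplasmic reticulum and also works alone as a folding enzyme. In many mammalian cells P4ha1, P4ha2, Plod1 and Plod2 belong to the genes induced by hypoxia through the hypoxia-inducible factor.

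The cells were fibroblasts from mouse embryos (MEFs) infected in 2 rounds with retroviruses for Sox2, Klf4 and Oct4 (SKO cells), or with a virus for green fluorescent protein (GFP cells). The groups were SKO cells with vitamin C (6 arrays), SKO cells without vitamin C (6 arrays), GFP cells with vitamin C (1 array) and GFP cells without it (1 array). The SKO series ran over days 3, 4, 5, 6, 8 and 10, the GFP pair was taken on day 3, and each condition and day had 1 array. All cells were kept from day 2 in mouse embryonic stem cell medium with serum and LIF, to which 50 µg/ml vitamin C was added or not, so the treated cells of day 3 had been exposed for about a day. No mouse strain or embryo age was stated, and no condition had a second culture. The p-values for vitamin C therefore measure how much its difference varied between the days of this single course. Those for the days and for the virus measure a difference against the disagreement between the arms with and without vitamin C. None of them measures a spread between cultures. No sorting of infected cells is described, so each sample is a mixed culture. Fewer cells of a type and less RNA per cell cannot be told apart in such bulk samples.

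Signals are log2 values from the RMA method, so a difference of 1 is a doubling. Array medians lay between 5.19 and 5.28, and the values are compared within a gene and not between genes. Fibroblast markers were high on every array: the mesenchymal filament gene Vim had a signal between 11.47 and 12.06 on all 14 arrays and the fibroblast receptor gene Pdgfrb one between 8.62 and 10.14. Over the 11 measured MEF markers the mean signal was between 8.45 and 8.79 in SKO cells with vitamin C, between 8.45 and 8.80 in SKO cells without it, 9.27 in GFP cells with vitamin C and 8.88 in GFP cells without it. Arrays of days 3 to 6 were compared by an alternation contrast. It averages day 4 minus the mean of its neighbours and the mean of the neighbours of day 5 minus day 5. Days 4 and 5 thus weigh more in it than days 3 and 6. In this contrast 6.53% of genes were positive and 5.94% negative (limma, adjusted p under 0.05), 2486 genes in all. That count was 131 without the untreated array of day 5, and was 439 without the treated array of day 4, 469 without that of day 5 and 823 without the untreated array of day 4. Among the 7 genes P4ha3 passed it, at 0.51 ± 0.15 (SE, adjusted p = 0.0442), a call that was lost with each array centred on its median (adjusted p = 0.0513) and without 7 of the 8 arrays of these days when each was left out alone. Results within days 3, 5 and 10 and within days 4, 6 and 8 are given where they change a call. The contrast covers days 3 to 6 only, so the place of days 8 and 10 in these sets was not tested. Leaving out an array of day 3 or 6 changed its count of genes less than leaving out one of day 4 or 5. It therefore does not show by itself that day 6 goes with day 4, or day 3 with day 5.

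Stretches of 250 bases before the transcription start are shown for the 2 genes that fell with vitamin C (P4ha1 and P4ha2), for their relative that did not pass (P4ha3) and for the lysyl hydroxylase gene with the most matches (Plod3). The sequences are from RefSeq (GRCm38.p6), which held 6 of the 7 genes, all but Plod2. Capitals mark matches on either strand to ACGTG or GCGTG, the core letters of the element bound by the hypoxia-inducible factor; matches that overlap were each counted.
P4ha1, chr10:59323046-59323295, plus strand: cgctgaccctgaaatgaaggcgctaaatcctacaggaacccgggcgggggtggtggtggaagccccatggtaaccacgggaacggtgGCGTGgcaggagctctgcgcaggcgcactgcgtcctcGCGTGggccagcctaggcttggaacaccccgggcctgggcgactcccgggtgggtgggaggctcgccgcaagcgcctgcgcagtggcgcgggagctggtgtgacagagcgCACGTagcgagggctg
P4ha2, chr11:54100674-54100923, plus strand: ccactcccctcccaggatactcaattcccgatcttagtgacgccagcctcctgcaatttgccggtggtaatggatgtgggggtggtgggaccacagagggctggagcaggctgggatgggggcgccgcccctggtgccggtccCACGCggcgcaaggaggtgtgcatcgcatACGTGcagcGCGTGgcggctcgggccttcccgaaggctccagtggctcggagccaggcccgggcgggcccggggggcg
P4ha3, chr7:100285270-100285519, plus strand: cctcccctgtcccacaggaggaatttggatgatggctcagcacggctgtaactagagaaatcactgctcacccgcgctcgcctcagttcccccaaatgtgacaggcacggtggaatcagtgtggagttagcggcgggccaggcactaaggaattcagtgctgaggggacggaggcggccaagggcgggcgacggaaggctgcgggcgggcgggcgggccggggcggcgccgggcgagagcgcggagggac
Plod3, chr5:136986769-136987018, plus strand: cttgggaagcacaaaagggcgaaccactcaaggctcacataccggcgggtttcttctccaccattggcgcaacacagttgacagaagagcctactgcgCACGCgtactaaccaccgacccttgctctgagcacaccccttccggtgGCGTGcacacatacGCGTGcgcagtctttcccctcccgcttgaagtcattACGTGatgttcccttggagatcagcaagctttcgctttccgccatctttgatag
P4ha1 and P4ha2 held 3 matches each, Plod3 held 4, P4hb 2, Plod1 1 and P4ha3 0. Of all 27025 mouse promoters of this length in the table, 38.6% held at least 1 match and 6.69% held 3 or more. Among the 7446 promoters with a GC content of 60% or more the shares were 64.2% and 15.9%. Plod3, with a GC content of 55.6%, is outside that class, and 2.66% of all promoters held 4 or more matches. A match is a description of the letters and does not show that a factor binds there.

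Vitamin C was compared with no vitamin C in SKO cells of the same day, which asked whether supply of the cofactor went with a change in the mRNA of the enzymes that use it. P4ha1 and P4ha2 fell with vitamin C. The other 5 genes did not pass the test, although all 7 fitted differences were below 0. The median of the 7 differences was -0.23, against -0.01 over all genes.

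P4ha1 showed the widest gap. With vitamin C its signal over the days in order was 8.19, 7.47, 7.81, 7.78, 7.94 and 7.95. Without vitamin C it was 9.13, 8.86, 8.74, 8.67, 8.54 and 8.60. All 6 treated arrays thus lay below all 6 untreated ones, with 0.35 log2 units between the highest treated and the lowest untreated array. Such a separation downwards was found for 0.15% of all genes (30 of 19938). The fitted difference was -0.90 ± 0.11 (SE, 95% interval -1.13 to -0.66, adjusted p = 0.0059), which placed P4ha1 as the gene with the 8th lowest mean difference of all.

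P4ha2 followed the same direction with a smaller gap. Its signal with vitamin C over the same days was 7.08, 6.70, 6.62, 6.53, 6.51 and 6.20. Without vitamin C it was 8.00, 7.57, 7.18, 7.07, 6.78 and 6.58. The groups overlapped, since for instance the untreated signal of day 10 was below the treated signals of days 3, 4 and 5, but the treated array was the lower one on each of the 6 days. The fitted difference was -0.59 ± 0.10 (SE, 95% interval -0.82 to -0.36, adjusted p = 0.0228). In all, 2 of the 7 genes were lower and 0 higher, where 0.291% of all genes were lower and 0.642% higher (limma with the day as a factor, adjusted p under 0.05).

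P4ha3, the remaining alpha subunit gene, had a treated signal of 6.42 to 7.21 (median 6.86) and an untreated one of 6.08 to 7.52 (median 6.89). The treated array was lower on 3 of 6 days. Its difference was -0.05 ± 0.11 (SE, 95% interval -0.29 to 0.18, adjusted p = 0.908), an interval that leaves out a change as large as that of P4ha2. Between alpha subunits the difference could be compared day by day with exact sign flips over the 6 days (64 patterns, two-sided, smallest possible p 0.0312). The vitamin C difference of P4ha1 was below that of P4ha3 on all 6 days (mean -0.84 ± 0.30, SD, exact p = 0.0312), and below that of P4ha2 on all 6 days (-0.31 ± 0.16, SD, exact p = 0.0312). For P4ha2 against P4ha3 it was lower on 5 of 6 days (-0.54 ± 0.35, SD, exact p = 0.0625). These comparisons were chosen after the values were seen. With 6 pairs compared in both gene families, the first 2 had an adjusted p of 0.0625 and the last 0.0938, so none passed. The first 2 were already at the smallest possible p, so a larger difference could not have brought them under the threshold. The adjusted test therefore cannot decide whether these subunits differ.

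P4hb, the common partner of the alpha subunits, had a signal of 9.54 to 10.32 (median 9.99) with vitamin C and of 9.78 to 10.35 (median 10.12) without it. The treated array was lower on each of the 6 days, by 0.03 to 0.24. This small difference, -0.12 ± 0.08 (SE, 95% interval -0.29 to 0.06), did not pass (adjusted p = 0.637).

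Among the lysyl hydroxylases Plod2, whose product hydroxylates the telopeptides of collagen, came closest to the threshold. Its signal was 7.77 to 8.57 (median 8.31) with vitamin C and 8.27 to 8.90 (median 8.60) without it, and the treated array was lower on all 6 days by 0.22 to 0.49. The difference of -0.35 ± 0.08 (SE) missed the threshold (adjusted p = 0.0800), but passed with the genes of lowest signal left out (adjusted p = 0.0387) and with an intensity trend in the variance model (adjusted p = 0.0182). Plod1, which acts on the helical part of collagen, had a signal of 7.49 to 8.35 (median 7.69) with vitamin C and 7.74 to 8.48 (median 8.05) without it. Its difference of -0.23 ± 0.11 (SE, adjusted p = 0.444) held the same direction on 5 days, day 6 being the exception. Plod3, whose product also carries the glycosyltransferase activities that act on hydroxylysine, differed by -0.14 ± 0.08 (SE, adjusted p = 0.584), likewise lower on all days but day 6. Between Plod2 and Plod3 the vitamin C difference was lower for Plod2 on 6 of 6 days (-0.21 ± 0.09, SD, exact p = 0.0312, adjusted over the 6 pairs 0.0625), again at the smallest possible p. Plod1 differed from Plod2 by 0.11 ± 0.24 (SD, exact p = 0.375) and from Plod3 by -0.10 ± 0.20 (SD, exact p = 0.250). Counting direction alone, 4 of the 7 genes (P4ha1, P4ha2, P4hb and Plod2) were lower with vitamin C on every one of the 6 days, as were 3.2% of all genes.

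**Figure D1:**
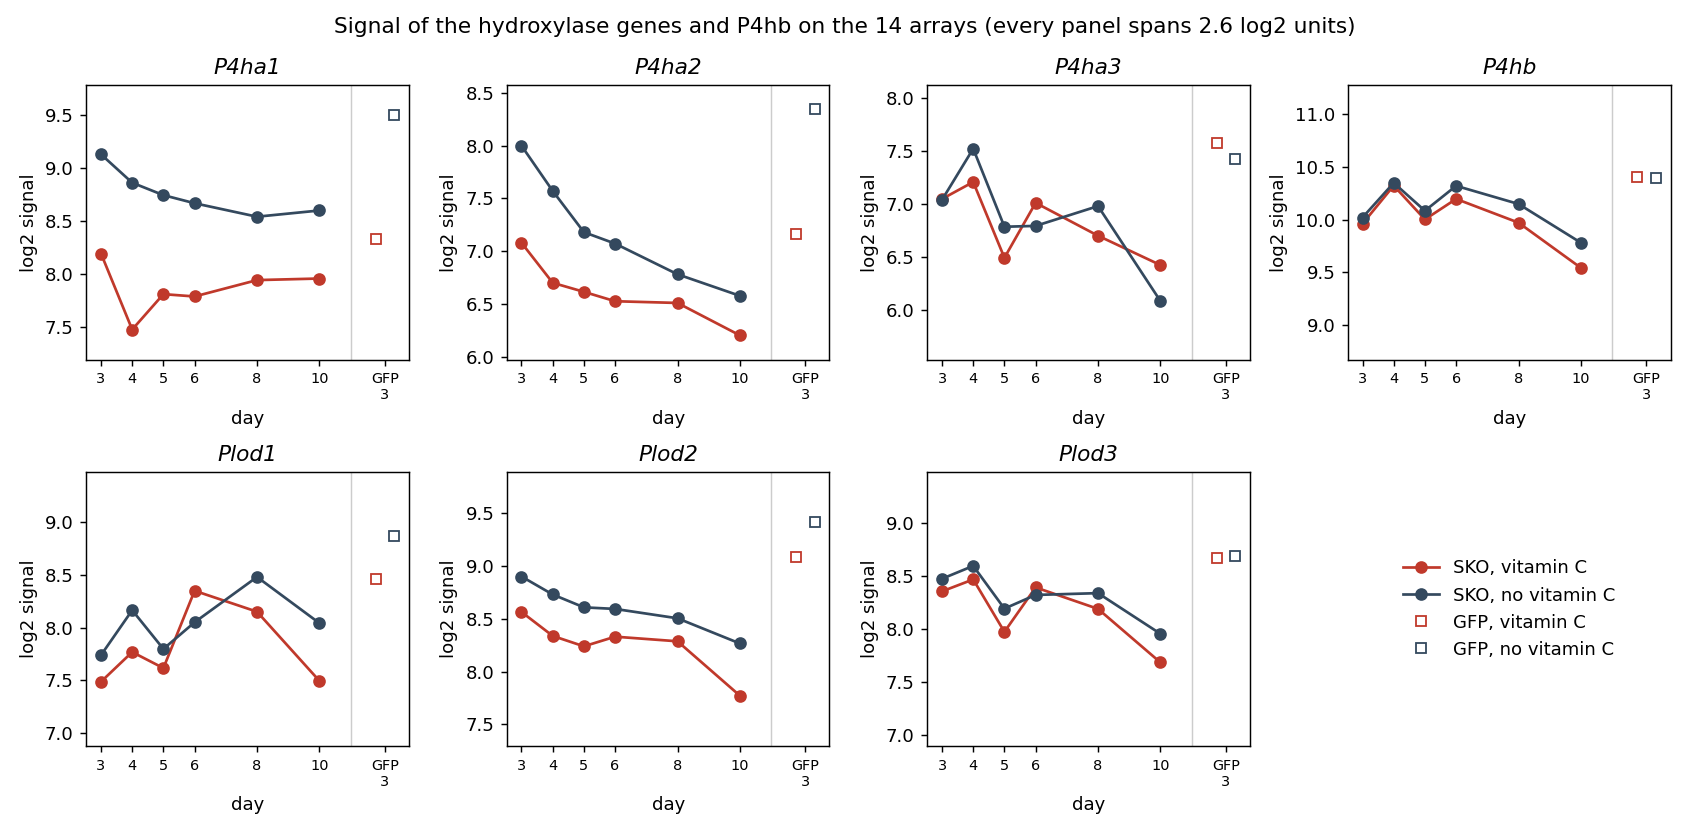
Log2 signal (y axis) of the 7 genes by day (x axis) in SKO cells with (red circles) and without vitamin C (dark circles), with the GFP pair of day 3 at the right (squares); each point is 1 array and every panel spans the same height. The red and dark P4ha1 lines do not meet, the P4ha2 lines are 0.92 apart on day 3 and 0.37 on day 10, and the P4ha3 lines cross.

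Markers of other cells were read in the same comparison. Of 10 pluripotent cell markers 8 had fitted differences above 0, with a median of 0.24, and 1 passed, L1td1 (0.53, adjusted p = 0.0257), while Fbxo15 had the largest difference and did not pass (0.85, adjusted p = 0.0821). Among 11 MEF markers Lum passed (0.85, adjusted p = 0.0257; list median -0.06), and among 7 endothelial markers Tek did (0.58, adjusted p = 0.0206), while 0 of 8 epithelial, 0 of 12 macrophage and 0 of 8 skeletal muscle markers passed. Over all genes 0.642% were called higher and 0.291% lower, so counts of 0 lie near those shares in lists of this size. The part of these markers in the differences of P4ha1 and P4ha2 was not tested.

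The day sets bear on the firmness of these calls. P4ha1 stayed past the threshold when any single day was left out (adjusted p between 0.00634 and 0.0479), whereas P4ha2 lost its call without day 4, 5, 6 or 10 (adjusted p between 0.0536 and 0.0918). Within days 3, 5 and 10 the differences were -0.84 for P4ha1 and -0.62 for P4ha2, and within days 4, 6 and 8 they were -0.96 and -0.56. With 3 pairs per set P4ha1 passed within days 4, 6 and 8 (adjusted p = 0.0499), and neither gene passed within days 3, 5 and 10 (adjusted p = 0.550 for both), where limma called no gene of the array and 1560 genes had an unadjusted p under 0.05.

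The vitamin C difference by day was then examined for a drift. For P4ha1 it was widest on day 4 (-1.39) and narrowest on day 8 (-0.60). For P4ha2 it was -0.92 on day 3 and -0.87 on day 4, -0.56 and -0.55 on days 5 and 6, and -0.27 and -0.37 on days 8 and 10. The gap of both genes was thus smaller on days 8 and 10 than on any earlier day. Fitted as a slope per day, the difference of P4ha1 changed by 0.08 ± 0.04 (SE, adjusted p = 0.662) and that of P4ha2 by 0.09 ± 0.04 (SE, adjusted p = 0.583), so neither drift passed. The slopes of the other 5 genes lay between -0.03 and 0.05, and 0 of the 7 passed, where 0.0251% of all genes had a called slope below 0 and 0.01% one above 0 (0.0351% in all).

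**Figure D2:**
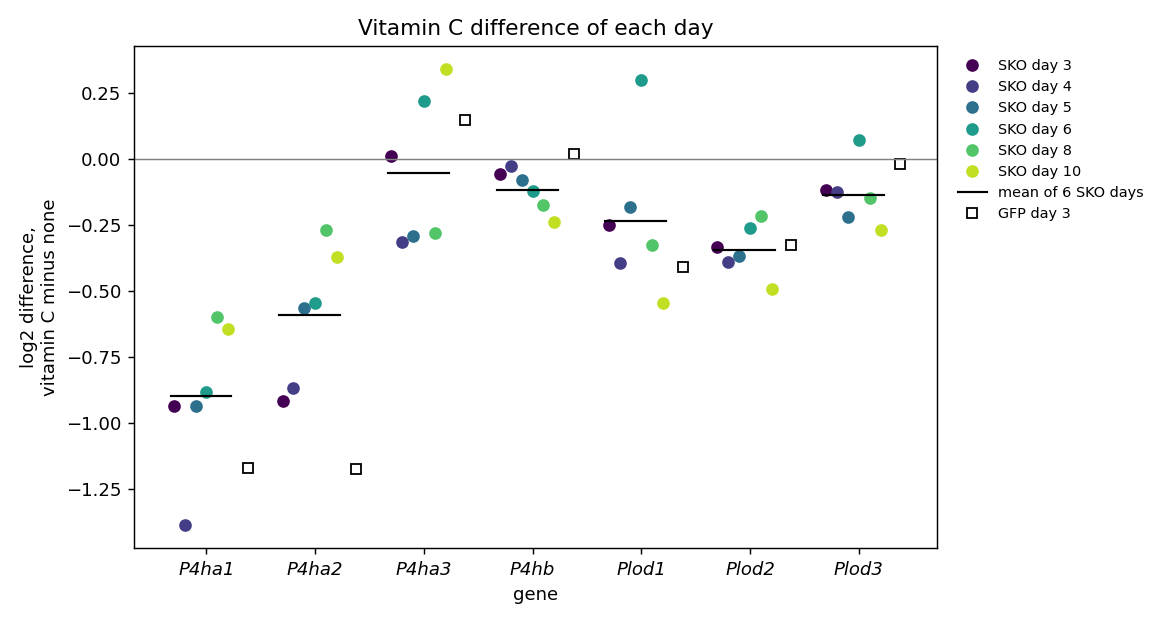
Difference of log2 signal, vitamin C minus none (y axis), for each gene (x axis) on each SKO day (coloured circles), with the mean over 6 days (bar) and the single GFP pair (square). P4ha1 and P4ha2 lie below 0 on all 6 days and in GFP cells, where they differ by -1.17 and -1.18, while P4ha3 falls on both sides of 0.

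GFP cells gave the only view of vitamin C without the 3 factors, with 1 array for each condition and so no replicate. P4ha1 had a signal of 8.33 in GFP cells with vitamin C and 9.50 without it. P4ha2 had 7.17 with vitamin C and 8.34 without it. These are differences of -1.17 and -1.18, 2.26-fold each, and 0.181% and 0.176% of all genes had a difference as low or lower in this pair. Plod1 was 8.46 with and 8.86 without vitamin C, and Plod2 9.09 with and 9.41 without. P4ha3 (7.57 and 7.43), P4hb (10.41 and 10.39) and Plod3 (8.68 and 8.69), each given with vitamin C first, differed by at most 0.15. P4ha1 and P4ha2 were thus the lowest of the 7 differences in GFP cells as well. In the same pair the mean of the MEF markers was 9.27 with and 8.88 without vitamin C, and that of the macrophage markers 5.13 with and 4.76 without. Pluripotent cell (4.57 against 4.45) and epithelial markers (4.95 against 4.88) also had higher means with vitamin C. So did endothelial (4.37 against 4.20) and skeletal muscle markers (5.87 against 5.73). The MEF mean rests partly on S100a4, whose vitamin C difference in GFP cells exceeded that in SKO cells by 1.63. The median of this excess over the MEF markers was 0.19. The part of these marker lists in the differences was not tested.

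The difference between the vitamin C effect in GFP cells and that in SKO cells was tested as an interaction. P4ha2 differed most, by -0.59 ± 0.27 (SE, 95% interval -1.18 to 0.01), and P4ha1 by -0.27 ± 0.28 (SE, 95% interval -0.90 to 0.35). Neither passed (adjusted p = 0.720 and 0.864), nor did any of the 7 or any other gene of the array (0%). At an unadjusted p under 0.05, 1377 genes differed, and 1 gene passed with an intensity trend in the variance model. Set against SKO day 3 alone, the interaction of P4ha2 was -0.26 (adjusted p = 0.999, and between 0.562 and 0.737 under the other settings).

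The reprogramming course asked how the enzymes changed in SKO cells between days 3 and 10. P4ha2, P4ha3, Plod2 and Plod3 fell, while P4ha1, P4hb and Plod1 did not pass. The 4 falling genes made 4 of 7, where 5.64% of all genes fell and 6.55% rose. The median of the 7 differences was -0.60, against -0.02 over all genes.

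P4ha2 fell most. Its signal was 6.20 on day 10 against 7.08 on day 3 with vitamin C, and 6.58 on day 10 against 8.00 on day 3 without it, a fitted difference of -1.15 ± 0.18 (SE, 2.22-fold, adjusted p = 0.0014). Each later day in either arm was below the one before it. P4ha3 was 6.42 on day 10 against 7.05 on day 3 with vitamin C, and 6.08 on day 10 against 7.04 on day 3 without it (-0.79 ± 0.19, SE, adjusted p = 0.0169). Unlike P4ha2 it did not fall evenly: it was highest on day 4 in both arms (7.21 with and 7.52 without vitamin C).

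P4ha1 was 7.95 on day 10 against 8.19 on day 3 with vitamin C, and 8.60 on day 10 against 9.13 on day 3 without it, which did not pass (-0.38 ± 0.19, SE, 95% interval -0.79 to 0.02, adjusted p = 0.234). Across all 6 days no difference passed for this gene (F test, adjusted p = 0.350). Among the catalytic subunits P4ha1 was called for vitamin C but not for the day, P4ha3 for the day but not for vitamin C, and P4ha2 for both. Whether the day effects differ between these genes was not tested. P4hb was 9.54 on day 10 against 9.96 on day 3 with vitamin C and 9.78 against 10.02 without it (-0.33 ± 0.14, SE, adjusted p = 0.162). Over any days P4hb passed (F test, adjusted p = 0.0372), with its lowest signal on day 10 and its highest on day 4 in both arms. In that test 5 of the 7 genes passed, P4hb and the 4 that fell, where 18.9% of all genes did, and without day 3, 4 or 10 the count was 1 of 7.

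Plod2 was 7.77 on day 10 against 8.57 on day 3 with vitamin C, and 8.27 on day 10 against 8.90 on day 3 without it (-0.71 ± 0.14, SE, 1.64-fold, adjusted p = 0.0059). Plod3 was 7.68 on day 10 against 8.36 on day 3 with vitamin C, and 7.95 on day 10 against 8.48 on day 3 without it (-0.60 ± 0.14, SE, 1.51-fold, adjusted p = 0.0179). For both genes day 10 was the lowest day in either arm. Plod1 took another course, at 7.50 on day 10 against 7.49 on day 3 with vitamin C and 8.04 on day 10 against 7.74 on day 3 without it (0.16 ± 0.19, SE, adjusted p = 0.693). It was highest on day 6 with vitamin C (8.35) and on day 8 without it (8.48).

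**Figure D3:**
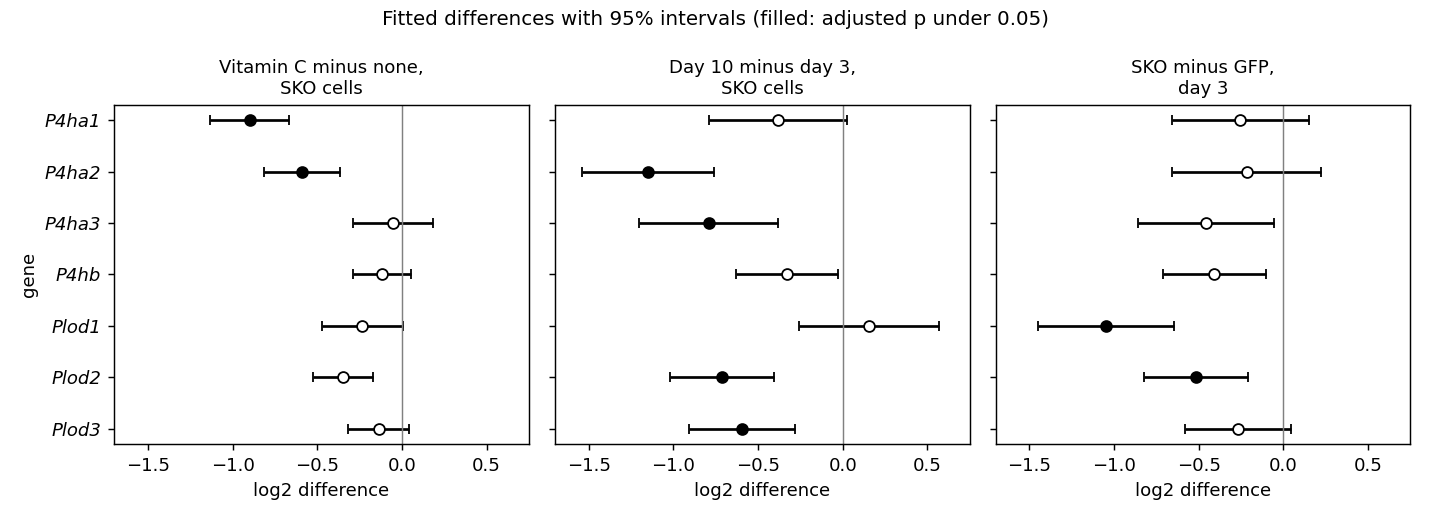
Fitted log2 differences (x axis) of the 7 genes (y axis) with 95% intervals for vitamin C in SKO cells, day 10 against day 3 of SKO cells, and SKO against GFP cells on day 3; filled points passed (adjusted p under 0.05). Different genes are filled in each panel: P4ha1 and P4ha2 for vitamin C, P4ha2, P4ha3, Plod2 and Plod3 for the day, Plod1 and Plod2 for the virus.

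Each of these 4 falls rests on 2 arrays against 2. Within days 3, 5 and 10 all 4 passed (adjusted p between 0.0105 and 0.0392), and P4ha2 passed without any single array, whereas the count was 1 to 2 of 7 when any of the 4 was left out: P4ha2 with Plod2 without either untreated array, P4ha2 alone without the treated array of day 3, and P4ha2 with P4ha3 without that of day 10. Against day 5 in place of day 3 the count was 0 of 7, with P4ha2 at -0.51 (adjusted p = 0.228). Against day 4 it was 5 of 7, with P4hb called as well (-0.67, adjusted p = 0.00741). Over the same course markers of other cell types moved. Of 12 macrophage markers 9 were higher on day 10 than on day 3, where 6.55% of all genes were higher and 5.64% lower. Their mean signal was 5.79 on day 10 against 4.63 on day 3 with vitamin C and 5.96 against 4.53 without it. The mean of 8 epithelial markers was 5.94 on day 10 against 4.72 on day 3 with vitamin C and 5.65 against 4.79 without it, and that of 10 pluripotent cell markers was 5.86 against 4.59 and 5.33 against 4.57. The mean of the 11 MEF markers was 8.72 on day 10 against 8.54 on day 3 with vitamin C and 8.80 against 8.45 without it. That mean was pulled up by Lum, a proteoglycan gene, at 2.22; 7 of the 11 fitted differences were below 0 and their median was -0.25, against -0.02 over all genes, with 3 called higher and 1 lower. The part of these cells in the falls of the hydroxylase genes was not tested.

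A further comparison set the SKO arrays of day 3 against the GFP arrays, that is cells with and without the 3 factors soon after infection. Plod1 and Plod2 were lower in SKO cells and none of the 7 was higher, where 8.43% of all genes were lower and 9.22% higher. Plod1 had a signal of 7.49 in SKO and 8.46 in GFP cells with vitamin C, and of 7.74 in SKO and 8.86 in GFP cells without it. The difference was -1.05 ± 0.19 (SE, 2.07-fold, adjusted p = 0.0017). Plod2 had 8.57 in SKO and 9.09 in GFP cells with vitamin C, and 8.90 in SKO and 9.41 in GFP cells without it (-0.52 ± 0.14, SE, adjusted p = 0.0226). Both SKO arrays lay below both GFP arrays for these genes, but also for P4ha3, P4hb and Plod3, which did not pass. The share of all genes with such a separation was not counted. Of the 11 MEF markers 5 were lower in SKO cells, with a mean signal of 8.54 in SKO and 9.27 in GFP cells with vitamin C, and of 8.45 in SKO and 8.88 in GFP cells without it; the part of this in the differences was not tested.

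The remaining 5 genes had negative differences that did not pass, from -0.46 ± 0.19 (SE, adjusted p = 0.115) for P4ha3 to -0.22 ± 0.20 (SE, adjusted p = 0.529) for P4ha2. For P4ha1 the signal was 8.19 in SKO and 8.33 in GFP cells with vitamin C, and 9.13 in SKO and 9.50 in GFP cells without it. Against SKO day 4 the difference of Plod1 was -0.69 (adjusted p = 0.0356) and that of Plod2 -0.71 (adjusted p = 0.00581), and P4ha1 also passed (-0.75, adjusted p = 0.0246). Plod1 passed without any single array, and Plod2 lost its call without each of the 4 (adjusted p between 0.0698 and 0.129).

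Other genes of collagen synthesis were read beside these enzymes from lists chosen with earlier results of these data known. For vitamin C in SKO cells, 0 of 17 other modification and folding genes passed, 0 of 18 collagen chain genes and 0 of 9 genes of a list made of disulfide isomerases and Ero1b, an oxidase gene whose product recharges them. Their median differences were -0.07, -0.04 and -0.10, against -0.01 over all genes. Over all genes 0.291% were called lower and 0.642% higher, so counts of 0 lie near those shares in lists of this size. Of 10 genes for cross-linking and propeptide cleavage 2 were lower, Adamts3, a procollagen N-proteinase gene (-0.53 ± 0.10, SE, adjusted p = 0.0356), and Tll1, a gene of the procollagen C-proteinase family (-0.46 ± 0.09, SE, adjusted p = 0.0485).

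From day 3 to day 10 the lists were mixed, and they are read beside shares of 5.64% lower and 6.55% higher over all genes. Of the 17 modification and folding genes 3 fell and 2 rose: Creb3l1, a transcription factor gene of collagen-secreting cells, fell 2.31-fold and Serpinh1, which encodes the collagen chaperone HSP47, 1.68-fold, while P4htm, a membrane-bound relative of the prolyl hydroxylases, rose 1.75-fold and P3h2, a prolyl 3-hydroxylase gene, 1.62-fold. Among the collagen chains 4 of 18 fell, among them Col12a1 (1.73-fold) and Col1a1 (1.73-fold), and 2 rose, Col15a1 (2.93-fold) and Col14a1 (1.72-fold). Of the 10 cross-linking and cleavage genes 5 fell and 0 rose, with Tll1 (2.69-fold), Lox (1.99-fold), the lysyl oxidase gene, and Loxl3 (1.84-fold) falling most. Of the 9 disulfide isomerase and Ero1b genes, Pdia5 (2.21-fold) and Txndc5 (1.46-fold) fell and Ero1b (1.99-fold) rose.

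In SKO against GFP cells on day 3 the lists are read beside shares of 8.43% lower and 9.22% higher over all genes. Of 18 collagen chains 10 were lower and 0 higher, with Col5a1 2.43-fold, Col6a2 2.38-fold, Col18a1 2.17-fold and Col3a1 2.15-fold lower. Of 17 modification and folding genes 6 were lower and 0 higher, with 10 of 17 fitted differences below 0; the lower ones included Creb3l1 (4.09-fold), P3h3 (1.88-fold), Crtap (1.69-fold), a partner of the prolyl 3-hydroxylases, and Colgalt1 (1.54-fold), a collagen galactosyltransferase gene. Cross-linking and cleavage genes went both ways, with 5 of 10 lower, among them Loxl1 (3.14-fold) and Adamts14 (2.23-fold), and 3 higher, among them Pcolce2 (8.29-fold), a gene for an enhancer of propeptide cleavage, and Tll1 (5.06-fold). Of the 9 disulfide isomerase and Ero1b genes 3 were higher and 0 lower: the isomerase family genes Tmx1 (2.02-fold) and Pdia6 (1.68-fold) and the oxidase gene Ero1b (1.90-fold).

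Hypoxia-induced genes were listed apart, because P4ha1 and P4ha2 are often counted among them. Of 24 measured, none of them one of the 7 genes, 0 passed for vitamin C in SKO cells, where 0.291% of all genes were called lower and 0.642% higher. In that comparison 20 of 24 fitted differences were below 0 (83.3%, against 52.3% of all genes) and the median was -0.15. In the GFP pair 21 of 24 were below 0 (87.5%, against 48.0% of all genes), with a median of -0.45, against 0.01 over all genes. The lowest there were Ero1a, an oxidase that recharges the disulfide isomerase (-1.40), Bnip3 (-1.32), the glucose transporter gene Slc2a1 (-1.07) and the growth factor gene Vegfa (-1.01), which were chosen after their values were seen. In SKO cells the same 4 genes differed by -0.31, -0.54, -0.36 and -0.33, with adjusted p between 0.0985 and 0.276. P4ha1 (-1.17) and P4ha2 (-1.18) lay among these 4 genes in the GFP pair. In SKO cells P4ha1 was at -0.90 and P4ha2 at -0.59, the latter close to Bnip3. Whether they differ from these 4 genes was not tested. The next lowest hypoxia-induced genes in the GFP pair, Higd1a (-0.83) and Egln3 (-0.81), differed by 0.09 and 0.33 in SKO cells. On day 10 against day 3, 14 of the 24 fitted differences were below 0, with a median of -0.08, against -0.02 over all genes. Of the 24, 4 rose, where 6.55% of all genes did, among them Egln3 (2.46-fold), an oxygen-sensing prolyl hydroxylase gene, Kdm3a (1.59-fold) and Pdk1 (1.52-fold), and 1, Pgam1, fell (1.68-fold), where 5.64% of all genes did. In SKO against GFP cells 6 of 24 were lower, among them Ndrg1 (2.07-fold), Bnip3 (1.87-fold) and Adm (1.82-fold), and Hk2 was higher (1.94-fold). Over all genes 8.43% were lower there and 9.22% higher.

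**Figure D4:**
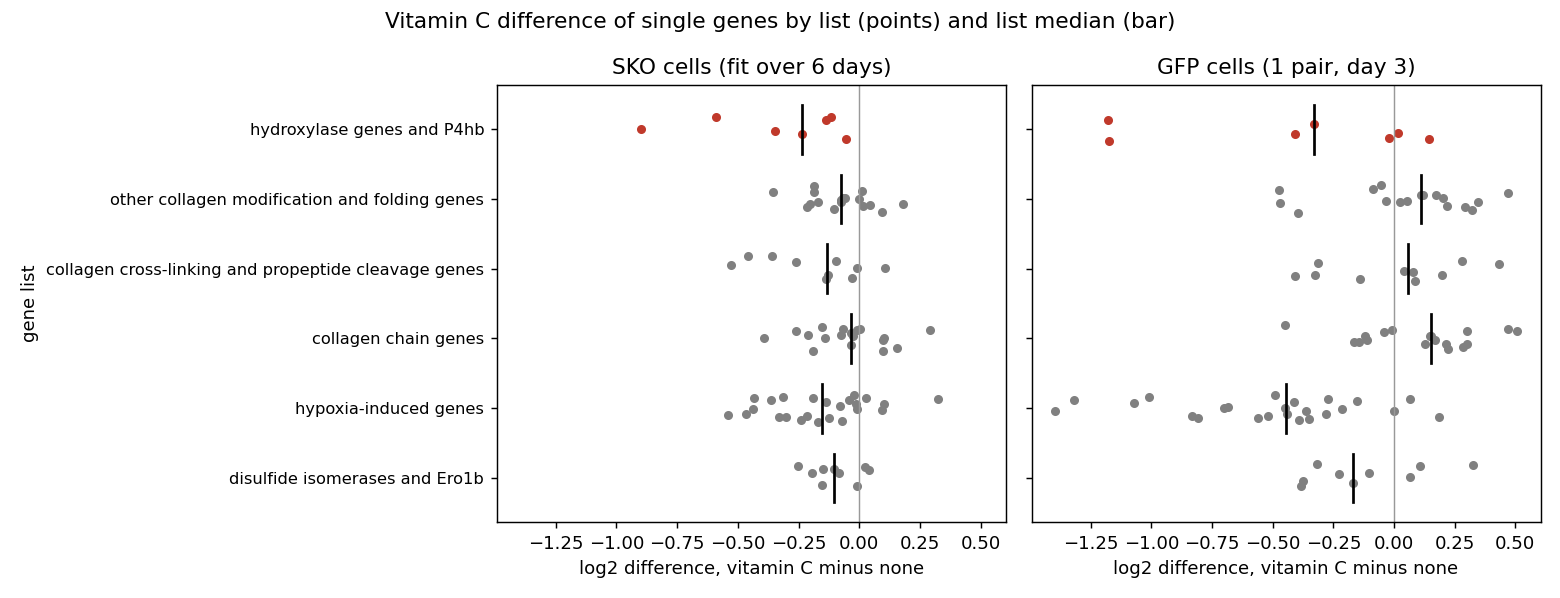
Log2 difference, vitamin C minus none (x axis), of single genes (points) by list (y axis) with the list median (bar), in SKO cells by the fit over 6 days and in the single GFP pair of day 3. Hypoxia-induced genes spread below 0 in GFP cells (median -0.45) and less so in SKO cells (median -0.15), while the collagen chains have medians of 0.15 and -0.04.

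As a description of likeness, each of the 7 genes was set against the 9562 named genes of at least median signal over the 14 arrays by Pearson's r; the 14 arrays share the days and the alternation between them. P4ha1 was most like Vldlr (r = 0.89), a lipoprotein receptor gene, Map2k1 (0.89) and Aldh1l2 (0.88). P4ha2 was most like Aldh1l2 (0.96) and Mthfd2 (0.96), both genes of mitochondrial folate metabolism, and Cald1 (0.95). The vitamin C gap of P4ha1 and P4ha2 is part of the variation over these arrays, so genes chosen for likeness carry such a gap by choice; as a description, their differences in SKO cells were -0.58 for Vldlr, -0.27 for Map2k1, -1.15 for Aldh1l2, -0.59 for Mthfd2 and -0.31 for Cald1. P4ha3 was most like the cytoskeletal genes Csrp1 (0.96) and Actn1 (0.95) and the calcium sensor gene Ncs1 (0.96). Plod2 was most like Fat4 (0.96), Igf2r (0.95) and Hoxb9 (0.95), and Plod3 like Plcd1 (0.98), Rap1gds1 (0.97) and Ncs1 (0.97). P4hb was most like Map4k4 (0.95), Polrmt (0.93) and Anxa6 (0.93), and Plod1 like Smap2 (0.95), Tanc2 (0.94) and Nid1 (0.92). Within the family the pairs most alike were P4ha3 with Plod3 (0.92) and P4ha2 with Plod2 (0.90), and the least alike were P4ha1 with P4hb (0.26) and P4ha1 with P4ha3 (0.27).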

How the data were processed

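Per the labels' protocols, RNA was hybridised to 14 whole-transcript Affymetrix arrays, 1 per condition and day. The authors deposited log2 signals made with RMA and Partek, per the submitters' processing notes; their versions were not stated, and the log2 scale was read from the values (0.72 to 14.1). RMA tends to narrow differences of weak signals. Of 28853 probes, 21789 had 1 gene symbol, which gave 19938 genes after updating through RefSeq identifiers (19856 found), each read from the probe of highest mean over the 14 arrays.

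The models were fitted by lmFit and eBayes of limma 3.58.1 (R 4.3.3) over all genes, with Benjamini-Hochberg adjustment and a threshold of 0.05, and the scripts were tested on simulated data. Vitamin C, the day, the slope and the alternation were fitted on 12 SKO arrays, each day being a factor level, which pairs arrays as their labels do; the other comparisons used all 14. The members, lists and rules were chosen with earlier results of these data known. All 7 members were named, with the 3 genes most like each and up to 4 called genes per list and comparison. Of 140 listed genes 134 were measured. Alternatives were other normalizations, filters, variance models, probe summaries, day codings and left-out days or arrays. Plots came from matplotlib 3.10.9 (Python 3.11.15).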

Additional observations from a re-analysis of the deposited data

How the results depend on the processing

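Of 658 member values under other settings, 570 kept their direction and their side of the threshold; 56 lost and 14 gained a call, and 18 changed sign, all of genes that were not called. The cause was not tested. For vitamin C in SKO cells the count of called members was 1 with no replicate block (P4ha1; P4ha2 at -0.59, adjusted p = 0.802), 1 within days 4, 6 and 8 (P4ha2 -0.56) and 0 within days 3, 5 and 10 (P4ha1 -0.84, P4ha2 -0.62); without single days it was 1 to 2, with P4ha2 between -0.65 and -0.53. Over all genes 186 passed, against 4 with no replicate block, 112 with the day as a number, 62 within days 4, 6 and 8, 0 within days 3, 5 and 10 (limma, 1560 at an unadjusted p under 0.05), 23 to 263 without single days and 364 with an intensity trend. Elsewhere over all genes, 2430 passed for day 10 (3182 against day 4, 345 against day 5, 964 to 1511 without single arrays), 3773 for any day (1232 within days 3, 5 and 10, 175 within days 4, 6 and 8), 3519 for SKO against GFP (1551 with day 4, 1298 to 2758 without single arrays, lowest without the treated SKO array), 2486 for the alternation (4017 with array weights, 131 to 2865 without single arrays) and 7 for the slope (35 with an intensity trend). For day 10 the count of called members was 5 against day 4, 0 against day 5 and 1 to 2 without single arrays. For any day it was 0 within days 4, 6 and 8, 1 within days 3, 5 and 10 and 1 to 6 without single days. For SKO against GFP it was 1 without any single array. For the alternation it was 0 with median centring, 2 without weak genes or with array weights, 3 with an intensity trend and 0 to 2 without single arrays.

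Signs turned, of genes that did not pass there, for P4ha3 with vitamin C within days 3, 5 and 10 (0.0184), for day 10 of P4ha1 against day 4 (0.11) and day 5 (0.00135) and of Plod1 against day 4 (-0.20), and with median centring for Plod2 in the interaction (-0.00125) and the alternation (-0.00508). Without single arrays Plod1 on day 10 lay between -0.0316 and 0.34, P4ha2 in SKO against GFP between -0.51 and 0.0768, and the alternation between -0.41 and 0.0307 for P4ha1, -0.13 and 0.12 for P4ha2 and -0.00613 and 0.0361 for Plod2. Without single days the slope lay between -0.013 and 0.083 for P4ha3, -0.0515 and 0.0259 for Plod1, -0.0191 and 0.0313 for Plod2 and -0.0211 and 0.00675 for Plod3. The number of arrays limits the precision, and nothing here measures the spread between cultures.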
